A study of Mus musculus with 30 samples.

Results

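The comparison described here sets mouse embryonic fibroblasts transfected with siRNA against hnRNP-K (siHnrnpk) beside the same cells transfected with a control siRNA (siControl). Its 6 arrays, 3 in each group, were taken by their titles, which name the hnRNPKKD profiling experiment and the siRNA, and they are 6 of the 30 arrays in the series. The fibroblasts came from E13.5 embryos of strain C57BL/6 x 129SvJ and were homozygous for the p53 LSL allele, which is silent until Cre recombinase acts on it. Cells of both groups first received AdenoCRE for 24 h to restore p53, then siRNA oligos for 24 h, then 100 nM doxorubicin, a DNA-damaging drug, for 13 h. No group of this experiment lacked the Cre virus or the drug, so every value of its arrays is from cells with restored p53 and DNA damage. The same experiment held 3 arrays with siRNA against lincRNA-p21 (siLincp21) and 3 with siRNA against p53 (siP53), treated alike, and these are used where they show whether a change differs from those of the other siRNAs. The sources used here do not say how many oligos made up each siRNA, so changes belong to this siRNA. The labels number the arrays R1 to R3 (arrays 1 to 3 below) and do not say that they were separate cultures, so p-values measure only the spread between these arrays.

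HnRNP-K is a poly(C)-binding protein with KH domains that binds C-rich RNA and single-stranded DNA in the nucleus and cytoplasm. It is known to take part in splicing, mRNA stability, translation and transcription, and its relatives Pcbp1 to Pcbp4 bind similar sequences. After DNA damage it is stabilised and acts as a transcriptional co-factor of p53, and it was described as a protein partner of lincRNA-p21, an RNA that p53 induces next to Cdkn1a. The comparison asks which genes depend on hnRNP-K in the p53 response to damage.

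Values are log2 RMA signal, a normalised array brightness on a log scale, and a difference of 1 is a 2-fold change. Each gene was read from 1 probe set, and 12674 genes were above the lower limit of signal and tested. The medians of the 12 arrays lay between 4.832 and 4.914 over all probe sets, and arrays of the same group correlated at 0.997 to 0.998 for siHnrnpk and 0.993 to 0.996 for siControl. The correlations were 0.994 to 0.997 for siLincp21 and 0.976 to 0.995 for siP53. Changes are differences in log2 signal, siHnrnpk minus siControl, given ± the standard error from limma, and a gene was called at a Benjamini-Hochberg adjusted p below 0.05 over all tested genes. With siHnrnpk 1783 genes rose, which is 14.1% of those tested, and 1625 fell, which is 12.8%. The counts of each gene list below are to be read beside these shares. Both passed the test and changed at least 2-fold in 235 genes that rose (1.85%) and 211 that fell (1.66%), together 446 or 3.52%. The siHnrnpk and siControl arrays did not overlap in 49.4% of all tested genes. Since arrays measure RNA from a whole culture, fewer cells of a type and less RNA per cell cannot be told apart.

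Hnrnpk fell in every siHnrnpk array. On its main probe set, 1460547_a_at, the log2 signal was 8.38, 8.34 and 9.94 in siHnrnpk arrays 1 to 3 and 12.68, 12.03 and 12.47 in siControl arrays 1 to 3. The groups did not overlap, and array 3 of siHnrnpk kept the most signal. The change was -3.51 ± 0.35 (limma, adjusted p = 2.12e-05), which left 8.80% of the siControl signal. Probe sets 1423684_at and 1448176_a_at gave 7.56% and 7.23% of the siControl signal. The fourth, 1454692_x_at, whose suffix marks probes that may match other transcripts, kept 64.5%. Hnrnpk was 12.37, 11.91 and 12.31 with siLincp21 and 12.71, 12.10 and 12.61 with siP53, both inside or near the siControl range, and neither difference from siControl passed (adjusted p = 0.73 and 0.872).

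**Figure D1:**
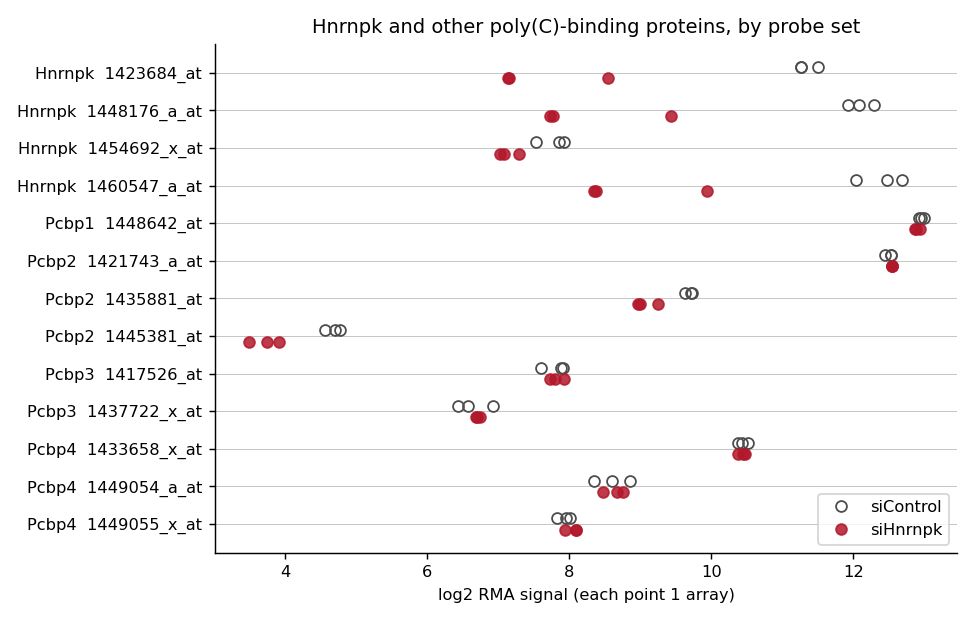
Log2 RMA signal (x axis) of each probe set of Hnrnpk and of Pcbp1 to Pcbp4 (y axis), with filled points for the 3 siHnrnpk arrays and open points for the 3 siControl arrays. The points of Hnrnpk separate widely on 3 of 4 probe sets, with 1 siHnrnpk array at a higher level than the others, while those of Pcbp1, Pcbp3 and Pcbp4 lie close together.

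Of the 5 poly(C)-binding proteins, Hnrnpk was the one member called on its main probe set. Pcbp1, the closest in function to Pcbp2 as an abundant C-rich RNA binder, differed by -0.06, Pcbp3 by 0.02 and Pcbp4 by -0.01 on their main probe sets. Pcbp2 differed by 0.05 ± 0.08 on its brightest probe set, 1421743_a_at. Its probe set 1435881_at stood at 8.97, 9.00 and 9.25 with siHnrnpk against 9.71, 9.73 and 9.62 with siControl. On this probe set of Pcbp2 the groups did not overlap, and siHnrnpk kept 65.4% of the siControl signal. The dim probe set 1445381_at, with means of 3.715 for siHnrnpk and 4.678 for siControl, kept 51.3% (-0.96 ± 0.18). Of the 3 probe sets of Pcbp2, 2 were called lower and 0 higher. Averaged over its probe sets Pcbp2 was -0.51 (adjusted p = 0.0014), so its direction depends on the probe set read.

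Array 3 of siHnrnpk, which kept the most Hnrnpk signal, was also the nearest to the siControl mean in many of the genes that changed. Among the 211 genes that fell at least 2-fold it was the nearest of the 3 arrays in 83.4%, and the median change was 1.32 in arrays 1 and 2 and 1.07 in array 3. Among the 235 genes that rose at least 2-fold it was the nearest in 56.6%, with median changes of 1.24, 1.28 and 1.19. This was near its share over all 3408 called genes, 55.1%. Array 3 was the nearest in all 12 genes with the largest decreases, of which Hnrnpk is one. Whether the weaker reduction of Hnrnpk set these smaller changes was not tested.

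Cdkn1a, the best known p53 target and the gene of the p21 protein that halts the cell cycle, stayed at its siControl level. It was 13.54, 13.60 and 13.54 with siHnrnpk and 13.53, 13.43 and 13.51 with siControl. The groups differed by hundredths, and the change of 0.07 ± 0.18 did not pass (adjusted p = 0.825). With siP53 Cdkn1a was 10.52, 11.41 and 10.61, and siHnrnpk was 2.71 higher than siP53 in the direct test (adjusted p = 1.3e-07).

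After Hnrnpk, the largest decreases were in genes of very different roles. Krt18, a keratin of simple epithelia, was 4.85, 4.87 and 5.27 with siHnrnpk against 7.88, 7.77 and 8.05 with siControl, a change of -2.91 ± 0.13 (adjusted p = 1.71e-07). Its siHnrnpk arrays were near the floor of the tested range, and the groups were far apart. Map2k1, which encodes the kinase MEK1 that activates ERK, was 8.12, 8.15 and 8.70 against 10.62, 10.64 and 10.62, a change of -2.30 ± 0.14 (adjusted p = 9.34e-07). All 3 siControl arrays of Map2k1 lay within hundredths of each other and far above siHnrnpk. Svip, which encodes a small partner of the VCP ATPase, fell from 9.17, 8.68 and 8.96 to 6.00, 5.74 and 6.59 (-2.83 ± 0.23). Mindy2, a deubiquitinase gene, fell from 9.97, 9.66 and 9.69 to 7.21, 7.38 and 7.72 (-2.34 ± 0.19). For both genes the highest siHnrnpk array, array 3, was still well below the lowest siControl array.

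Necap1, whose product works with clathrin adaptors in endocytosis, fell by 2.40 on the log2 scale, and Cyb5r1, a cytochrome b5 reductase gene, fell by 2.38. Cyb5r1 was 8.03, 8.26 and 8.65 with siHnrnpk and between 10.63 and 10.74 with siControl. Rp2, the GTPase-activating protein for Arl3 that is mutated in retinitis pigmentosa, fell by 2.19, and Cers6, a ceramide synthase gene, fell by 2.12. The angiotensin receptor gene Agtr2 fell by 2.08, and Tac1, which encodes the precursor of substance P, fell by 2.07. Agtr2 was 6.93, 6.92 and 7.49 with siHnrnpk and 9.45, 8.70 and 9.43 with siControl, so siControl array 2 stood closest to the knockdown. Col11a1, a chain of fibrillar collagen XI, was 6.21, 6.39 and 6.71 against 8.32, 8.68 and 8.40, a change of -2.03 ± 0.13 (adjusted p = 1.14e-06). No siHnrnpk array of Col11a1 came within 1 log2 unit of a siControl array.

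The largest increase was in Nme4, a nucleoside diphosphate kinase of mitochondria, at 10.13, 10.36 and 10.16 with siHnrnpk and 6.64, 7.03 and 6.97 with siControl (3.34 ± 0.35, adjusted p = 2.74e-05). Prps2, which makes phosphoribosyl pyrophosphate for nucleotide synthesis, was 10.89, 10.80 and 10.68 against 8.79, 8.45 and 8.69 (2.15 ± 0.11, adjusted p = 4.58e-07). Cyp2j9, a cytochrome P450 gene, was 6.92, 6.83 and 6.68 against 4.56, 4.64 and 4.59 (2.21 ± 0.13). In all 3 genes both groups were tight and clearly separate, and Cyp2j9 in siControl was at the lower limit of the tested range. Scn3b, a sodium channel subunit gene known to respond to p53, was 9.85, 9.98 and 9.87 against 8.04, 7.26 and 7.98 (2.14 ± 0.23). Gatm, the first enzyme of creatine synthesis, was 7.80, 7.87 and 7.66 against 5.77, 5.65 and 5.96 (1.98 ± 0.12). For Scn3b, siControl array 2 was the lowest of the 6 arrays, so the size of the rise depends on it more than that of Gatm does.

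The other 7 of the 12 largest increases lay between 1.99 and 2.17. Prune2, which encodes a BCH domain protein, rose by 2.17, Tsacc, a co-chaperone of a testis kinase, by 2.12 and Dzip1, a protein of cilium formation, by 2.10. Fam53b rose by 2.09, the lysophospholipid acyltransferase gene Lpcat2 by 2.07, the channel family member Calhm5 by 2.00 and Pm20d1, an enzyme of N-acyl amino acids, by 1.99. The other probe sets of Prune2 rose by 1.70 and 0.77 and those of Prps2 by 1.87 and 0.96, all in the same direction. Fam53b rested on 1 probe set: its other one was 0.08 and was not called. Among the largest decreases, the other probe set of Svip fell by 0.67.

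**Figure D2:**
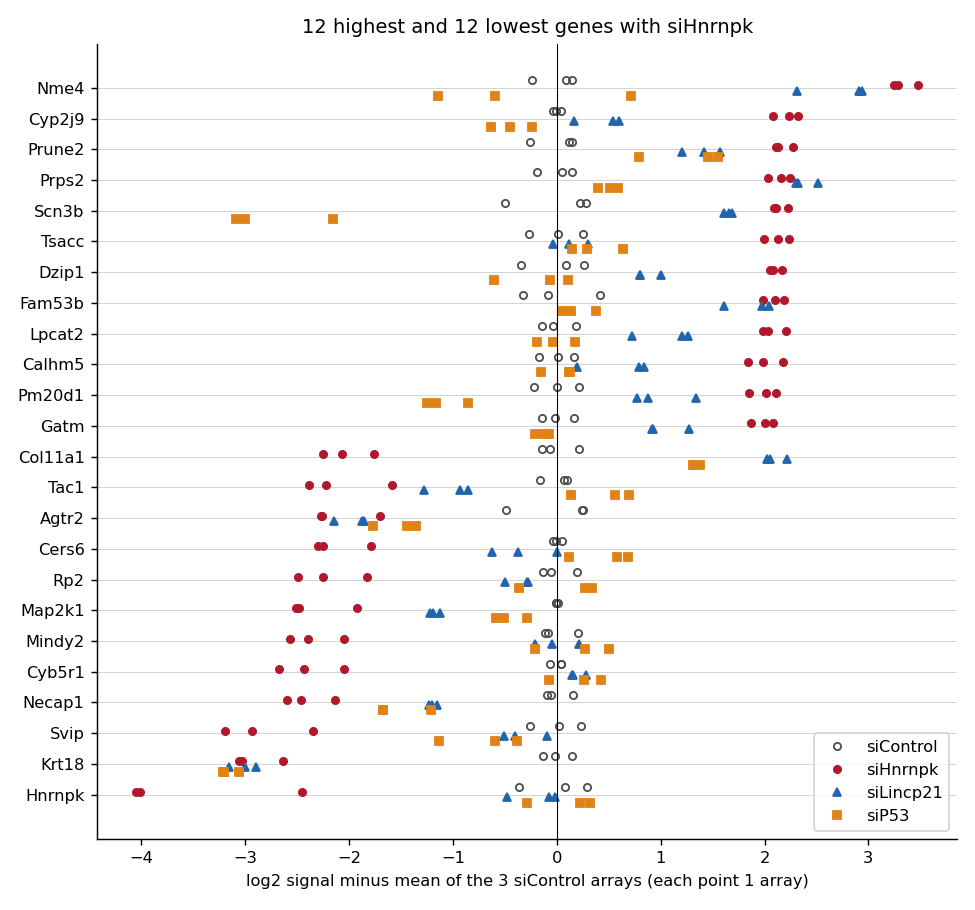
Log2 signal of each array minus the mean of the 3 siControl arrays (x axis) for the 12 highest and the 12 lowest called genes without overlap between siHnrnpk and siControl (y axis). Open circles are siControl, filled circles siHnrnpk, triangles siLincp21 and squares siP53. Nme4, Prps2, Krt18 and Agtr2 lie on the same side of 0 with siLincp21 as with siHnrnpk, and Col11a1 lies on opposite sides.

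In DNA, hnRNP-K is known for binding CT elements, C-rich stretches that include CCCTCCC in the promoter of Myc. The RefSeq promoter table (GRCm38.p6) was searched for CCCTCCC on either strand, which reads GGGAGGG on the other strand, in windows from 250 bases before to 50 after each start. An entry was matched by symbol for 10232 of the 12674 tested genes, and 32.4% of these held the element. It was present in 33.7% of genes that rose and 37.1% of those that fell, and in 33.3% and 37.9% of those that changed at least 2-fold. The shares differ by a few percentage points, no test was made, and a match of letters shows no binding. For single genes only the 250 bases before each start were searched, a shorter window, so their counts cannot be set against these shares. In it, of the 12 lowest genes, 5 held the element (Hnrnpk, Svip, Mindy2, Map2k1 and Col11a1). Of the 10 of the 12 highest with an entry, Dzip1 did, with Scn3b and Pm20d1 having none matched. Hnrnpk is the target of the siRNA, and no share over all genes was counted in this window. Whether the element goes with a decrease was not tested. Cdkn1a, whose level did not pass the test, held it 3 times before 1 of its 2 starts.
The 250 bases before the start are shown as examples for 4 of the lowest genes, the siRNA target itself and the kinase, deubiquitinase and collagen genes described above. They run 5′ to 3′ on the gene's strand, with the element in capitals.
Hnrnpk (chr13:58402118-58402367, minus strand, element 31 bases before the start): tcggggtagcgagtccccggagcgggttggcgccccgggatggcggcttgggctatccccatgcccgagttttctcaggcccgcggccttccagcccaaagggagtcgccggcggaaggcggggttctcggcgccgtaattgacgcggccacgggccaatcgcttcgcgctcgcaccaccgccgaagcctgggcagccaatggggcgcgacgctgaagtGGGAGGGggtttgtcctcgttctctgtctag
Map2k1 (chr9:64253606-64253855, minus strand, element 16 bases before the start): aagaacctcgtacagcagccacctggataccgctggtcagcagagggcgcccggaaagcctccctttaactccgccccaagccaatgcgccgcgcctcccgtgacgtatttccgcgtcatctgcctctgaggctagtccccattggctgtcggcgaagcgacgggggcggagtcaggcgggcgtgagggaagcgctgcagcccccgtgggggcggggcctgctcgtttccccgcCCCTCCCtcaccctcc
Mindy2 (chr9:70657175-70657424, minus strand, element 130 bases before the start): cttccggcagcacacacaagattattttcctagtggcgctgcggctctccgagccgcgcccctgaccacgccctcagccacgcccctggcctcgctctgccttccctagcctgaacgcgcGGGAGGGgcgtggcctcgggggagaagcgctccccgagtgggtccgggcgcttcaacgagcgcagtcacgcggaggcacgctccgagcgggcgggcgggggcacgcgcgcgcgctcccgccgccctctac
Col11a1 (chr3:114030290-114030539, plus strand, element 220 bases before the start): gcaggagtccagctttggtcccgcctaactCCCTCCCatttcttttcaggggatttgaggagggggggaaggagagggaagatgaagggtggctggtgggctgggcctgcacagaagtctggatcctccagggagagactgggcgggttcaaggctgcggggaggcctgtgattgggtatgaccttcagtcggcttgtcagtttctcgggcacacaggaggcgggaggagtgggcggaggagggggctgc

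Among genes of RNA processing, the other hnRNP genes and the splicing regulators fell more often than they rose. The mRNA decay genes were near the shares of all genes in both directions. The core spliceosome genes were near the falling share only, with 13% falling and 4.35% rising. Of 24 tested hnRNP genes other than the poly(C)-binding proteins, 7 fell and 1 rose, against 12.8% and 14.1% of all genes, with a median change of -0.19. Of 23 tested SR proteins and splicing regulators, 10 fell and 2 rose, with a median of -0.37. With siLincp21, against the same controls, 7 and 6 of these fell and 1 and 3 rose, and directly against siLincp21 the medians were -0.04 and -0.03. Srsf9 was 9.84, 9.92 and 9.96 with siHnrnpk against 10.82, 10.78 and 10.77 with siControl (-0.88 ± 0.10, adjusted p = 4.17e-05). Srsf3, a small SR protein whose gene lies near Cdkn1a, was 10.56, 10.46 and 10.63 against 11.31, 11.39 and 11.44 (-0.83 ± 0.09). Both SR proteins were lower in every siHnrnpk array by a similar amount. Srsf6 fell by 0.63, and the muscleblind splicing regulator Mbnl1 rose by 0.64. Without any 1 of the 6 arrays 1 of the splicing regulators rose. Without siP53 array 2 in the fit, 15 of the splicing regulators fell and 3 rose, and 10 of the other hnRNP genes fell and 2 rose.

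Among the other hnRNP genes, Ptbp3, a polypyrimidine tract binding protein, was 7.92, 7.95 and 8.24 against 9.21, 9.05 and 9.11 (-1.09 ± 0.16). Hnrnph1, a binder of G-rich RNA, was 10.10, 10.12 and 10.29 against 10.74, 10.92 and 10.93 (-0.69 ± 0.11). Hnrnpa2b1 fell by 0.62 and Hnrnpdl by 0.58 on their main probe sets. For Ptbp3 and Hnrnpa2b1 the other probe sets did not follow: averaged over the probe sets they were -0.20 and -0.02, and neither passed (adjusted p = 0.267 and 0.921). Of 23 core spliceosome genes 1 rose and 3 fell, of which the 3′ splice site factor U2af1 changed by -0.87 ± 0.22. Of 23 genes of mRNA decay 3 rose and 4 fell. The RNA-destabilising protein gene Zfp36l2 rose by 0.55, the decapping enzyme gene Dcp2 fell by 0.91, the exonuclease gene Xrn1 fell by 0.66 and the nonsense-mediated decay nuclease gene Smg6 rose by 0.58. Without siHnrnpk array 3, 2 of the decay genes fell, and without siHnrnpk array 2 or siControl array 2, 1 rose. Averaged over probe sets, neither Zfp36l2 (0.19, adjusted p = 0.15) nor Dcp2 (-0.08, adjusted p = 0.636) passed.

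Probe sets of 1 gene read different parts of its transcripts, so they can move apart when transcripts of a gene change unequally. Probes that match other transcripts and dim probes can move apart too, and the test does not tell these apart. Of 6061 genes with at least 2 tested probe sets, 603 had probe sets that responded unequally to siHnrnpk, which is 9.95% (limma diffSplice, adjusted p below 0.05 over genes). Hnrnpk itself was among them (adjusted p = 3.73e-06), with all 4 probe sets lower and 1454692_x_at the least. In 62 of the 603, 1 probe set was called higher and another lower. The range between the probe sets of an unequal gene had a median of 0.91, against 0.22 over all genes tested. In 206 of the 603 a probe set other than the main one was called while the main one was not. The same test gave 364 genes for siLincp21 (6.01%) and 636 for siP53 (10.5%), which share the siControl arrays with it. Compared directly with siLincp21, 643 genes responded unequally, and 310 genes were in both lists, 51.4% of those against siControl and 48.2% of those against siLincp21. These lists share the siHnrnpk arrays. The count fell to 230 of 3157 genes (7.29%) when only probe sets with a mean of at least 7 were kept.

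With predicted genes passed over, the 6 genes with the smallest p in this test had adjusted p from 1.25e-10 (Dclk1) to 1.76e-08 (Nrp2). The gene passed over among them was 2510009E07Rik (adjusted p = 2.46e-10 in the same test), with 1 probe set called higher and 1 lower. Nrp2, a receptor for semaphorins and VEGF, rose on 1456778_at from 7.55, 8.06 and 7.42 to 9.04, 8.94 and 8.97. On 1435349_at Nrp2 fell from 8.45, 8.97 and 8.66 to 7.83, 7.57 and 8.16. The groups did not overlap on either probe set, and the changes were 1.30 ± 0.18 and -0.84 ± 0.19. The chromatin remodelling subunit gene Bcl7c rose on 1449523_at from 8.14, 8.17 and 8.16 to 9.12, 9.11 and 8.98 (0.91 ± 0.09) and fell on 1443898_at and 1446516_at by 0.87 and 0.76. The probe sets of Bcl7c that fell were dim, at 4.09 to 6.28, where the array has less room to show a decrease.

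Dclk1, a doublecortin-like kinase of microtubules, rose on 4 probe sets by 0.55 to 0.65 and fell on 1450863_a_at by 1.23 and on 2 others by 0.49 and 0.55. The probe sets of Dclk1 that fell had means of 4.41 to 5.50 over the 12 arrays, and those that rose had means of 7.10 to 9.84. Ercc6l2, a helicase gene of the repair family, rose on 1453985_at from 3.93, 4.20 and 3.93 to 6.37, 6.43 and 6.17 (2.30 ± 0.11), against 0.73 and 0.65 on the others. All 3 probe sets of Ercc6l2 rose, but the siControl arrays of 1453985_at lay below the limit of signal of 4.5442, so the size there is uncertain. Atat1, the tubulin acetyltransferase gene, fell by 1.94 on 1429006_s_at from 6.71, 6.58 and 6.56 to 4.40, 4.71 and 4.91, while its other 3 probe sets, with means under 5, were between -0.32 and -0.12. The transporter gene Abcc5 rose on 4 probe sets by 0.79 to 1.30 and differed by -0.36 to 0.04 on the other 4, none of which was called. Sik3, a salt-inducible kinase gene chosen after its values were seen because all its probe sets were bright, rose by 1.19 and 1.12 on 1460439_at and 1441947_x_at. On 1455437_at Sik3 fell from 10.84, 10.58 and 10.74 to 9.76, 9.89 and 10.01 (-0.83 ± 0.14).

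**Figure D3:**
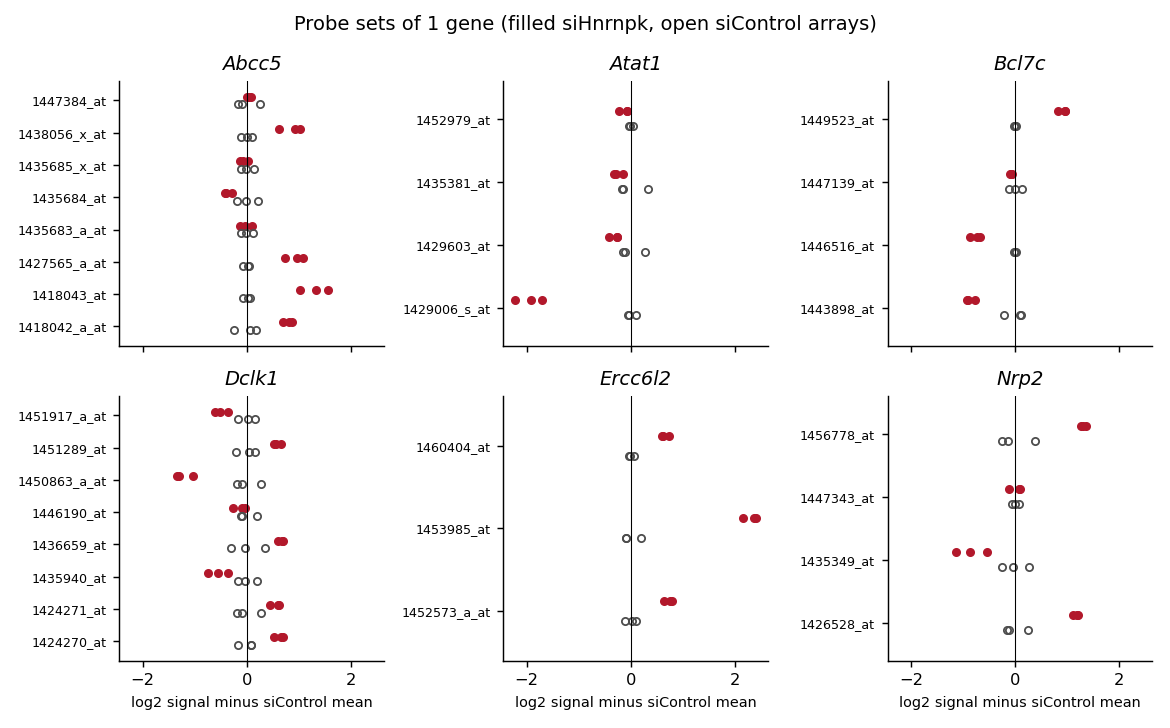
Each panel is 1 of the 6 genes with the smallest p in the test for unequal probe sets, predicted genes passed over. Its probe sets are on the y axis and log2 signal minus the siControl mean is on the x axis. Filled points are the siHnrnpk arrays and open points the siControl arrays. In Bcl7c, Dclk1 and Nrp2 filled points lie on both sides of 0, and in Ercc6l2 all lie above it.

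Of 45 tested genes known to be activated by p53, 12 rose (26.7%) and 6 fell (13.3%), with a median of 0.16, against 14.1% and 12.8% of all genes. Without siP53 array 2 in the fit, which raised the counts over all genes to 2327 and 2172, 17 rose and 8 fell. Abhd4, a lipid hydrolase, was 13.37, 13.44 and 13.36 with siHnrnpk against 12.71, 12.51 and 12.66 with siControl (0.77 ± 0.08, adjusted p = 3.04e-05). Sesn1, a sestrin that restrains mTOR, was 8.82, 8.83 and 8.80 against 7.92, 8.09 and 7.89 (0.85 ± 0.10). In both genes every siHnrnpk array lay above every siControl array. Ddit4l, also an mTOR inhibitor, rose by 1.00 and the phospholipid transfer protein gene Pltp by 1.06. The death receptor gene Fas was 10.78, 10.70 and 10.72 against 9.96, 9.32 and 9.89 (1.01 ± 0.21), with siControl array 2 the lowest. The 6 that fell, named after their values were seen, were Tigar, Thbs1, Cpt1c, Perp, Ddit4 and Polk. Tigar, which lowers glycolytic flux, fell by 1.26 on the probe set used, but its 2 other probe sets were 0.08 and 0.06. Perp, an apoptosis effector at the membrane, was 10.47, 10.50 and 10.51 against 11.29, 11.01 and 11.23, and the matrix glycoprotein gene Thbs1 fell by 1.37.

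Compared directly with siP53, 38 of the same 45 targets were higher with siHnrnpk and 3 lower, with a median difference of 1.78, against 22.9% and 22.5% of all genes. With siP53 itself 37 of the 45 fell against siControl and 2 rose. With siLincp21 17 rose and 5 fell, with a median of 0.26, and directly 6 were higher and 12 lower with siHnrnpk than with siLincp21, with a median of -0.07. Of all genes 12.2% were higher and 15.4% lower with siHnrnpk than with siLincp21. These comparisons share arrays, so they are given side by side. Of 21 regulators and co-factors of p53, 3 rose and 3 fell. Hipk2, a kinase that phosphorylates p53, was 6.97, 6.80 and 7.54 against 8.43, 8.30 and 8.42 (-1.28 ± 0.20). Trim24, a ubiquitin ligase for p53, fell by 0.70, and Ppm1d, the phosphatase that ends the damage response, rose by 0.51. Array 3 of siHnrnpk was again nearest to siControl for Hipk2, but no array overlapped. Without siP53 array 2 in the fit, 5 of the regulators rose. Of 7 genes reported elsewhere as regulated by hnRNP-K none was called by limma, against 26.9% of all genes called in either direction. Mdm2, which encodes the main ubiquitin ligase of p53, was 12.55, 12.46 and 12.49 against 12.25, 12.08 and 12.27 (0.30 ± 0.23, adjusted p = 0.389), and Gadd45a was 0.28 ± 0.12. At an unadjusted p below 0.05, 2 of the 7 passed (Gadd45a and Sfn), and Mdm2 and Gadd45a passed when only the 6 siHnrnpk and siControl arrays were fitted (adjusted p = 0.0195 for Mdm2 and 0.0274 for Gadd45a). The shares of all genes under these settings are not given, so these counts have no background to be read against.

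Of 26 genes of the BCL2 family and cell death, 3 rose and 3 fell, which is 11.5% each and below the shares of all genes. Fas (above) and the BH3-only gene Pmaip1 rose, as did the survival gene Mcl1, while the BH3-only gene Bcl2l11 fell by 0.65. Pmaip1 was 9.77, 9.73 and 9.68 with siHnrnpk and 9.34, 8.65 and 9.25 with siControl. Leaving out siHnrnpk array 1, siControl array 1 or siControl array 3 left 1 of the 3 decreases.

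Many mitotic and replication genes fell. Of 42 tested mitotic genes, 18 fell and 0 rose, with a median of -0.41, and of 45 DNA replication genes 18 fell and 4 rose, with a median of -0.25, and the other 24 and 23 did not pass. Of all genes 12.8% fell and 14.1% rose. Kif20a, a kinesin of cytokinesis, was 8.65, 8.62 and 8.68 with siHnrnpk against 9.31, 9.48 and 9.29 with siControl (-0.71 ± 0.08, adjusted p = 6.49e-05). Top2a, the topoisomerase of chromosome condensation, was 8.87, 9.06 and 9.16 against 9.65, 9.96 and 9.68, and the mitotic kinase genes Ttk and Plk1 fell by 0.76 and 0.77. In all 4 genes siControl array 2 was the highest array, and without it 14 mitotic genes fell and 1 rose. Without both siControl array 2 and siHnrnpk array 3, 9 fell. Without siP53 array 2 in the fit, 27 fell and 0 rose. Cdc6, the loader of the replicative helicase, was 6.63, 6.49 and 6.75 against 7.77, 7.84 and 7.80 (-1.18 ± 0.11, adjusted p = 1.17e-05). Pole2, a subunit of DNA polymerase epsilon, was 7.26, 7.16 and 7.49 against 8.54, 8.69 and 8.56 (-1.30 ± 0.15), and Cdc45, part of the helicase, fell by 0.90. These replication genes had tight siControl arrays well above all siHnrnpk arrays. Cdc45 had 2 probe sets that responded unequally, of which 1 was called. Rfc1, the large subunit of the clamp loader, rose by 1.22. Without siHnrnpk array 2, 10 replication genes fell, and without siControl array 3, 2 rose.

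The mitotic genes also fell with siLincp21 (26 fell, 0 rose) and rose with siP53 (38 rose, 0 fell), each against the siControl arrays that all 3 share. In the direct tests 3 of the 42 were higher with siHnrnpk than with siLincp21 and 2 lower, while 40 were lower than with siP53. Of the 45 replication genes, 20 fell and 2 rose with siLincp21, and 26 rose and 0 fell with siP53. Directly, 6 of these were higher and 4 lower with siHnrnpk than with siLincp21, and 1 was higher and 33 lower than with siP53. Of all genes 12.2% were higher and 15.4% lower than with siLincp21, and 22.9% higher and 22.5% lower than with siP53. Among 29 cyclins, kinases and inhibitors of G1 and S, 7 rose and 6 fell. Rb1, the retinoblastoma protein gene, was 10.07, 10.06 and 10.02 against 8.74, 8.24 and 8.56 (1.53 ± 0.12, adjusted p = 3.6e-06). Every siHnrnpk array of Rb1 exceeded every siControl array by more than 1 log2 unit. Ccne2, an E-type cyclin gene, fell by 1.12, the kinase gene Cdk2 fell by 0.51 and the inhibitor gene Cdkn1c rose by 0.56. Without siHnrnpk array 1 or array 2 the counts were 4 and 3, and without siControl array 1 or array 3, 4 rose. Of 43 DNA repair and checkpoint genes 8 rose and 8 fell. The checkpoint clamp gene Hus1 rose by 0.87, the nucleotide excision repair gene Xpa by 0.89 and the single-strand break scaffold gene Xrcc1 by 0.59, and the helicase gene Brip1 fell by 0.64. Leaving out siHnrnpk array 2 brought these counts to 5 and 4. Without siControl array 3, 5 rose, and without siHnrnpk array 1 or siControl array 1 or 2, 5 fell.

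Signalling genes changed in both directions. Of 32 immediate early and MAPK feedback genes, which read out ERK activity among other inputs, 7 rose and 9 fell. Klf4, a zinc finger factor, was 10.97, 10.96 and 10.81 against 10.01, 9.46 and 9.62 (1.22 ± 0.15). The phosphatase gene Dusp10 rose by 0.82 and the factor Klf2 by 0.75, while the AP-1 gene Fosl2 was 9.13, 9.21 and 9.53 against 10.40, 10.41 and 10.33 (-1.09 ± 0.16). Arrays of the 2 groups were separate for Klf4 and Fosl2, in opposite directions. Fosl2 had 2 probe sets that responded unequally, of which 1 was called. Without siControl array 1, 3 of the 32 fell, and without siHnrnpk array 2 or array 3, 5 fell. Without siHnrnpk array 1 or 2 or siControl array 2 or 3, 4 rose.

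Of 35 growth factors and receptors 8 rose and 9 fell. The EGF receptor ligand gene Hbegf was 10.87, 10.88 and 10.97 against at least 11.75 in every siControl array (-0.93 ± 0.09, adjusted p = 1.57e-05), and Fgf7, the keratinocyte growth factor gene, fell by 1.02. Kitl, the ligand of the receptor Kit, rose by 1.04 from 9.76, 9.75 and 9.63, and the receptor gene Ret rose by 1.24. Each of these 4 genes had separate groups in all arrays on the probe set used. Ret had 2 probe sets that responded unequally, of which 1 was called. Without siHnrnpk array 1, 5 of the 35 rose. Of 32 TGF-beta and BMP genes 5 rose and 8 fell. The activin subunit gene Inhba was 10.69, 10.76 and 10.92 against 11.96, 11.86 and 12.01 (-1.15 ± 0.12), the ligand gene Tgfb1 fell by 0.70 and the receptor gene Tgfbr1 fell by 1.32. Ltbp2, a matrix protein of the family that binds latent TGF-beta, rose by 0.86. Tgfb1 and Tgfbr1 each had 2 probe sets that responded unequally, of which 1 was called. Without siHnrnpk array 3 or siControl array 1, 2 of these genes rose, and without siHnrnpk array 2, 3 rose. Of 32 Wnt, Notch and Hedgehog genes 8 rose and 8 fell, among them the Wnt modulators Dkk2 (-1.06) and Sfrp2 (1.06), the ligand gene Wnt4 (1.11) and the receptor gene Fzd8 (-0.54). Wnt4 had 2 probe sets that responded unequally, of which 1 was called. Without siHnrnpk array 2 or siControl array 1, 5 fell, and without siControl array 3, 5 rose.

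Inflammatory genes included some of the sharper decreases. Of 25 tested chemokine and inflammatory genes 3 rose and 3 fell. Cx3cl1, the membrane-bound chemokine fractalkine, was 7.60, 7.64 and 8.03 against 9.48, 9.30 and 9.46 (-1.66 ± 0.12, adjusted p = 2.15e-06). Ptgs2, which encodes cyclooxygenase for prostaglandin synthesis, was 11.46, 11.48 and 11.89 against 13.19, 12.88 and 13.28 (-1.51 ± 0.13). Array 3 of siHnrnpk was the nearest to siControl for both. The macrophage growth factor gene Csf1 rose by 0.68, and Il6 fell by 0.45 at a level near the lower limit. Without siControl array 2, 1 of the 3 increases passed. Of 39 interferon-stimulated genes 6 rose, which is near the share of all genes, and 1 fell, with a median of 0.24. Trim30a was 5.88, 5.88 and 6.94 against 5.13, 4.86 and 5.23 (1.16 ± 0.26), so siHnrnpk array 3 stood above the others. Ifi35 rose by 0.72 and the peptide transporter gene Tap1 by 0.84, and the nuclease gene Isg20 fell by 0.59. With the replicate number as a block 12 of the 39 rose, and without siHnrnpk array 1 it was also 12. Without siHnrnpk array 3, 4 rose and the median of the list was 0.06, and without siHnrnpk array 2, 4 rose.

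Of 31 tested integrins and adhesion receptors, 12 fell, 1 rose and 18 did not pass, with a median of -0.20. Cdh11, the cadherin of mesenchymal cells, was 9.29, 9.36 and 9.67 against 10.58, 10.49 and 10.46 (-1.07 ± 0.12, adjusted p = 4.95e-05). Itgav, the alpha-v integrin gene, was 11.64, 11.73 and 11.91 against 12.67, 12.43 and 12.46 (-0.76 ± 0.11), and the neural cell adhesion molecule gene Ncam1 fell by 0.89 and the integrin gene Itga3 by 0.53. Of the 6 probe sets of Ncam1, 1 was called higher and 2 lower, so its direction depends on the probe set read. Every siHnrnpk array of Cdh11 and Itgav was below every siControl array, but Itgav did not pass averaged over its probe sets (-0.45, adjusted p = 0.217). Of 40 collagens and matrix proteins 10 rose and 6 fell. The laminin chain gene Lamc1 was 8.43, 8.46 and 8.42 against 7.22, 7.57 and 7.39 (1.05 ± 0.12), while the small proteoglycan genes Dcn and Lum fell by 0.83 and 0.94. Dcn was 8.62, 8.62 and 8.64 against 9.50, 9.42 and 9.44, so its arrays were nearly equal within each group.

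Of 28 matrix proteases and inhibitors 5 rose and 9 fell. The stromelysin genes Mmp10 and Mmp3 fell: Mmp10 was 8.21, 7.77 and 7.92 against 9.65, 9.65 and 9.35 (-1.58 ± 0.12), and Mmp3 fell by 1.25. Mmp11 was 8.31, 8.25 and 8.26 against 6.92, 7.01 and 6.97 (1.31 ± 0.10, adjusted p = 3.51e-06), and Timp3, an inhibitor of these enzymes held in the matrix, rose by 1.2. Members of 1 enzyme family thus moved in opposite directions, with no overlap of arrays in any of the 4 genes. Without 1 array at a time, other than siControl array 2, 2 or 3 of the 5 increases passed. Of 32 contractile and cytoskeletal genes 3 rose and 5 fell. Of these Ccn2, a secreted target of YAP and TGF-beta, was 11.54, 11.49 and 11.51 against 12.20, 12.17 and 12.02 (-0.62 ± 0.10), and the smooth muscle actin gene Actg2 rose by 0.64. Without siHnrnpk array 1 or siControl array 2, 3 of these fell, without siControl array 1 or 3, 1 rose, and without siP53 array 2, 5 rose.

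Of 31 tested genes of glycolysis and hypoxia, 12 fell, 1 rose and 18 did not pass, with a median of -0.25. With siLincp21 11 of them fell and 5 rose against the same controls. Bnip3, a mitophagy receptor induced by hypoxia, was 9.03, 8.99 and 9.26 against 10.49, 11.00 and 10.83 (-1.68 ± 0.13, adjusted p = 4.46e-06). Egln3, an oxygen sensor, was 7.5, 7.54 and 7.37 against 8.82, 8.63 and 8.56 (-1.2 ± 0.16), and Ankrd37 fell by 0.71. Each had separate groups. Slc2a3, a glucose transporter gene, was the member that rose, by 1.05, from 5.16, 5.32 and 4.92. Egln3 and Slc2a3 each had 2 probe sets that responded unequally, of which 1 was called.

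Of the oxidant and amino acid stress genes in this paragraph, most did not pass, and more rose than fell. Of 26 tested NRF2 targets, genes of the response to oxidants, 7 rose and 1 fell, with a median of 0.19. Nqo1, a quinone reductase, was 11.95, 11.89 and 11.72 against 11.17, 11.25 and 11.24 (0.64 ± 0.10). Srxn1, which repairs peroxiredoxins, was 11.36, 11.23 and 10.97 against 9.90, 10.28 and 10.04 (1.11 ± 0.19), and Gclm, a subunit of glutathione synthesis, rose by 0.74. For Nqo1, Srxn1 and Gclm the siHnrnpk arrays kept the same order, with array 3 lowest, and stayed above siControl. The multidrug transporter gene Abcc1 fell by 0.97. Without siP53 array 2 in the fit, which raised the counts over all genes to 2327 and 2172, 12 NRF2 targets rose, with the median unchanged at 0.19. Of 34 genes of amino acid stress and the unfolded protein response 8 rose and 2 fell, with a median of 0.10. Without siHnrnpk array 1 or 2 or siControl array 1 or 2, 1 of these fell, and without siP53 array 2, 4 fell. Against the same controls, 14 rose and 1 fell with siLincp21, and 16 rose and 4 fell with siP53. Directly, 3 were higher and 11 lower with siHnrnpk than with siLincp21, against 12.2% and 15.4% of all genes. The proline synthesis gene Aldh18a1 was 7.86, 7.83 and 8.27 against 9.55, 9.28 and 9.31 (-1.39 ± 0.18). The amino acid transporter gene Slc7a5 rose by 0.73, the lipoprotein receptor gene Vldlr by 0.91 and the serine-glycine enzyme gene Shmt2 by 0.63.

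Of 27 lysosome and autophagy genes 5 rose and 2 fell, and without siHnrnpk array 2, 1 fell. Dram1, a p53-induced lysosomal protein, was 7.42, 7.59 and 7.51 against 5.46, 5.93 and 6.27 (1.62 ± 0.16), and the cholesterol exporter gene Npc1 rose by 0.69. Dram1 in siControl spread over more than 0.8, and its lowest siHnrnpk array was still more than 1 above the highest siControl array. Lamp2 rose by 0.90 on the probe set used, but on the one brightest over these 12 arrays it was 0.14 (adjusted p = 0.263). Of 18 sterol genes 2 rose and 2 fell, with Idi1, an isoprenoid enzyme, at 0.98 and Hsd17b7 at -0.98. Without any 1 of the 6 arrays other than siControl array 2, 1 sterol gene rose. Of 25 fatty acid genes 3 rose and 4 fell, among them the elongase gene Elovl5 at 1.45 ± 0.22. Elovl5 was 10.33, 10.16 and 10.14 against 8.41, 9.40 and 8.47, so siControl array 2 stood nearer to siHnrnpk than the other controls. Without siHnrnpk array 2, 2 fatty acid genes fell, and without siControl array 2, 5 rose.

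Polycomb and other repressors, a group that includes factors known to work with non-coding RNAs, fell more often than they rose. Of 36 tested, 9 fell and 2 rose, against 12.8% and 14.1% of all genes, with a median of -0.15. With siLincp21, against the same controls, 9 fell and 4 rose. Directly, 0 were higher and 5 lower with siHnrnpk than with siLincp21, against 12.2% and 15.4% of all genes, with a median of -0.07. Ezh2, the histone methyltransferase of the polycomb complex, was 8.05, 8.25 and 8.15 against 8.76, 8.99 and 8.93 (-0.74 ± 0.11). The polycomb partner gene Jarid2 rose by 0.63, and the co-repressor gene Sin3b fell by 0.41. The heterochromatin protein gene Cbx5 fell by 1.37 on the probe set used and was 0.14 (adjusted p = 0.525) on the brightest of these 12 arrays. Without siHnrnpk array 1 or 2 or siControl array 1 or 3, 3 or 4 of the 36 fell. Of 14 tested genes near Cdkn1a, Srsf3 and the spliceosomal isomerase gene Ppil1 fell (-0.83 and -0.66) and Kctd20 rose (0.29). Ppil1 was 8.37, 8.37 and 8.48 against 8.93, 9.16 and 9.13. Kctd20 did not pass averaged over its probe sets (0.06, adjusted p = 0.563).

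Large groups of housekeeping genes held few calls. None of 15 ribosomal protein, 26 proteasome or 25 oxidative phosphorylation genes passed in the limma fit, and 1 of each had an unadjusted p below 0.05 (Rps6, Psmb7 and Atp5c1). Heat shock proteins (16 tested) held 2 genes that rose and 2 that fell, without siHnrnpk array 2 or siControl array 1 none that fell, and 1 of 10 histone genes fell, but none without siHnrnpk array 1 or 2 or siControl array 2. Of 20 translation factors Eif4ebp1, which encodes an inhibitor of cap-dependent translation, rose (0.48 ± 0.11) and none fell. Under array weights, which raise the number of calls over all genes, 6 proteasome, 1 ribosomal protein and 3 oxidative phosphorylation genes passed. The median change was -0.08 over the proteasome genes and 0.01 over the ribosomal protein genes.

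**Figure D4:**
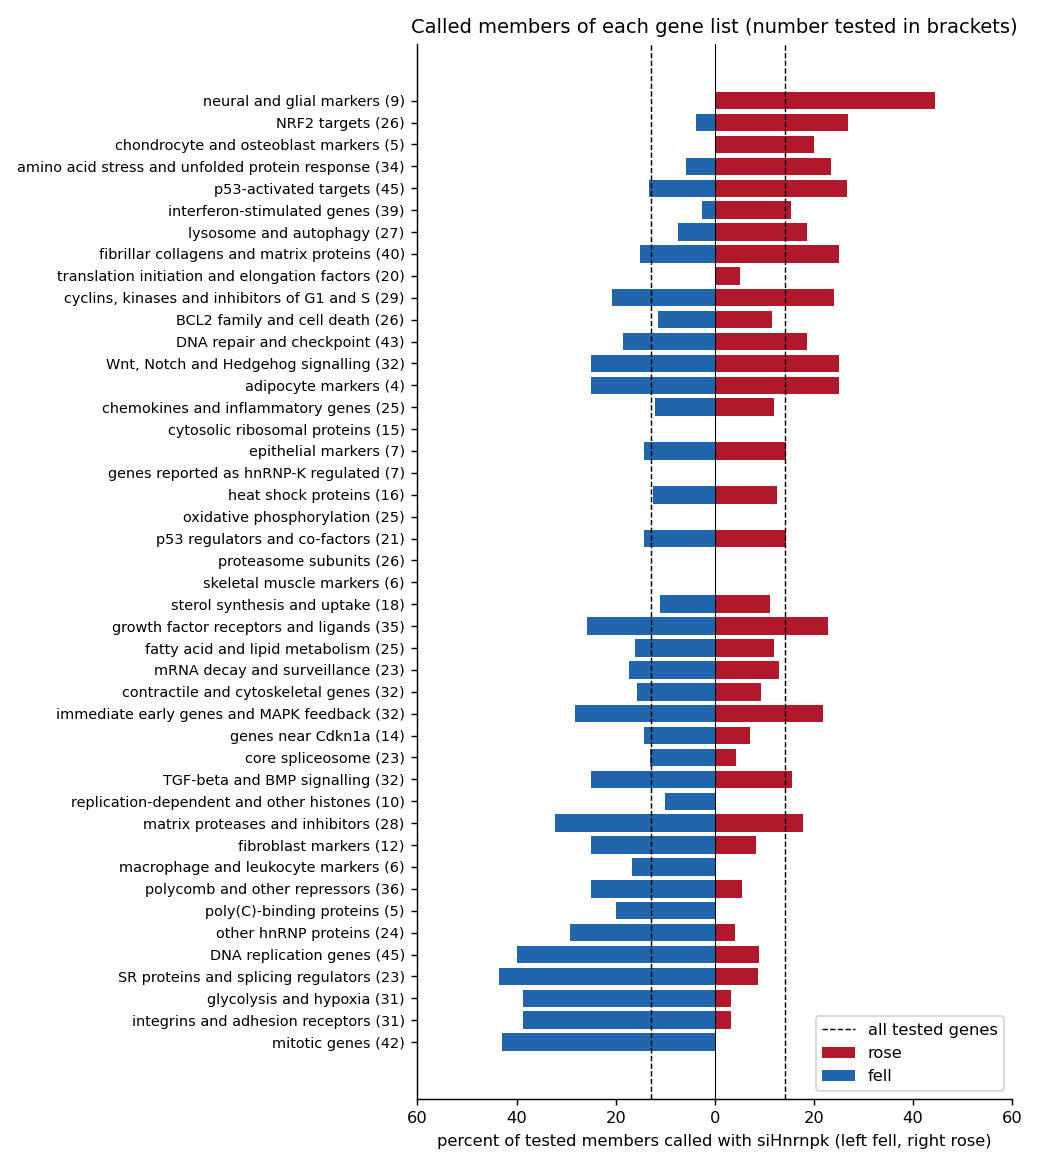
Percent of the tested members of each gene list (y axis, number tested in brackets) that rose (bars to the right) or fell (bars to the left) with siHnrnpk. Dashed lines are the shares of all tested genes, 14.1% rising and 12.8% falling. Mitotic genes, splicing regulators, replication genes, adhesion receptors and glycolysis genes reach about 40 percent on the falling side.

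The markers of fibroblasts were present on all arrays, with a summed log2 level of 16.38 to 16.45 with siHnrnpk and 16.41 to 16.48 with siControl over 12 of 12 tested markers. Of these Pdgfra rose and 3, among them Dcn and Lum, fell. Of the 12 neural and glial markers, 9 passed the lower limit of signal, 4 rose and 0 fell, and their summed log2 level was 11.83 to 11.86 with siHnrnpk and 10.96 to 11.16 with siControl. Tubb3, the neuronal beta-tubulin gene, was 8.39, 8.68 and 8.56 against 6.57, 7.03 and 6.83 (1.73 ± 0.15, adjusted p = 7.4e-06). Stmn2, a microtubule regulator of neurons, was 11.23, 11.22 and 11.21 against 10.02, 10.47 and 10.28 (0.96 ± 0.27, adjusted p = 0.0192), and its adjusted p was 0.0501 to 0.0764 when any of the 6 arrays other than siControl array 2 was left out. Map2 and Nes rose by 0.77 and 0.45. Their part in the other results was not tested.

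The markers of macrophages (6 of 13 above the limit, summed 9.48 to 9.55 against 9.54 to 9.76) and endothelium (3 of 10, 7.58 to 7.78 against 7.46 to 7.57) were low. Csf1r was the one macrophage marker called, at 5.01, 5.12 and 5.20 against 5.96, 6.03 and 5.46. Skeletal muscle markers (6 of 12) held no call by limma, and their summed level was 7.71 to 7.76 against 7.71 to 7.73. Of 7 epithelial markers Krt18 fell and Krt7 rose, from 4.75, 4.33 and 4.78 to 5.42, 6.27 and 6.07, and the summed level overlapped (10.37 to 10.55 against 10.37 to 10.60). Adipocyte markers (4 of 8) were lower, at 9.69 to 9.77 against 10.09 to 10.15, with 1 called in each direction. Neither was called without siHnrnpk array 2 or siControl array 1, the one that fell was not without siControl array 2, and the one that rose was not without siControl array 3. Without siP53 array 2, 2 fell. The part of these cell types in the results was not tested.

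The direct comparison with siLincp21 shows which changes differed between knockdown of hnRNP-K and siRNA against lincRNA-p21. It called 1545 genes higher with siHnrnpk (12.2%) and 1956 lower (15.4%). Of the 3408 genes called against siControl, 1495 (43.9%) also differed in the same direction from siLincp21, and so did 257 (57.6%) of the 446 that changed at least 2-fold. Both of these shares use the siHnrnpk arrays on each side. The largest difference was in Col11a1, which was 6.21, 6.39 and 6.71 with siHnrnpk, 10.52, 10.49 and 10.68 with siLincp21 and 8.32, 8.68 and 8.40 with siControl. Col11a1 thus lay on opposite sides of the control in the 2 knockdowns, and the difference was -4.12 ± 0.13 (adjusted p = 3.46e-09). The ephrin receptor gene Epha3 was 5.23, 4.33 and 5.42 with siHnrnpk and 8.24, 7.90 and 8.35 with siLincp21 (-3.17 ± 0.25), around siControl arrays at 6.07, 6.38 and 6.35. Cdh11 was -2.64, with siLincp21 at 12.21, 11.94 and 12.07, again above siControl. Cyb5r1 (-2.58) and Svip (-2.50) were lower with siHnrnpk, while siLincp21 left them at -0.33 to 0.19 of siControl, which did not pass.

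On the higher side, Cfdp1, a craniofacial development gene of chromatin, was 11.35, 11.37 and 11.36 with siHnrnpk and 11.36, 11.37 and 11.34 with siControl, but 9.19, 9.53 and 8.98 with siLincp21. The siHnrnpk and siControl arrays of Cfdp1 were indistinguishable at 0.00 ± 0.15, and the difference of 2.12 from siLincp21 came from the siLincp21 arrays. The connexin gene Gjb5 was 2.69 higher than with siLincp21, at 8.64, 8.97 and 8.89 against 6.05, 6.59 and 5.79, and siControl lay between them at 7.90, 7.77 and 8.30. Rragd, a Rag GTPase of mTOR signalling, was 2.25 higher, the elongase gene Elovl6 2.14, Snn 2.14 and the guanine deaminase gene Gda 2.13. All 4 were lower with siLincp21 than with siControl by 1.05 to 1.81. By list, 19 of 40 matrix genes and 15 of 31 adhesion receptors were lower with siHnrnpk than with siLincp21 and 1 of each was higher. Of 18 sterol genes 9 were higher and 0 lower.

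Some of the largest changes did not differ from siLincp21 beyond the error. Krt18 was 4.9, 4.74 and 5.0 with siLincp21 (difference 0.11 ± 0.13, adjusted p = 0.568). Agtr2 was 7.32, 7.05 and 7.33 (-0.12 ± 0.21, adjusted p = 0.733), and Prps2 was 10.95, 10.97 and 11.16 (-0.24 ± 0.11, adjusted p = 0.136). Nme4 was 9.79, 9.81 and 9.20 (0.61 ± 0.35, adjusted p = 0.229). A p that misses the threshold does not show that the 2 siRNAs act alike on these genes. For Krt18 the level with siP53 was also low, at 4.68, 4.84 and 4.70, so siControl stood apart from all 3 knockdowns.

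Against siP53, 2898 genes were higher with siHnrnpk (22.9%) and 2846 lower (22.5%). The largest positive differences were in Scn3b (4.89), the RNA-binding protein gene Celf5 (4.84), the meiosis gene Tex15 (4.51), the pleckstrin family gene Plek2 (4.34), Acaa1b, a peroxisomal thiolase (4.27), and Tbc1d8 (4.24). In all 6 siP53 was far below siControl, at -3.95 to -2.64, and in 5 of them siHnrnpk was above it by 0.87 to 2.14. Celf5 for example was 10.00, 10.06 and 9.97 with siHnrnpk, 8.84, 8.19 and 8.85 with siControl and 4.82, 5.58 and 5.12 with siP53. Acaa1b differed from siControl by 0.32 ± 0.28, which did not pass. On the lower side, after Hnrnpk, were Col11a1 (-3.36), the kinase gene Stk26 (-3.22), Epha3 (-3.16), the steroid-metabolising enzyme gene Akr1c14 (-2.99) and the small proteoglycan gene Aspn (-2.96). Akr1c14 was 4.99, 4.68 and 5.21 with siHnrnpk, 6.39, 6.30 and 6.39 with siControl and 8.01, 7.71 and 8.12 with siP53, so siControl lay between the knockdowns with no overlap.

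The separate experiments of the series, which share no array with siHnrnpk or its controls, gave gene groups that were chosen without these arrays. In the lincP21KD experiment, which used the same drug dose and times and had its own scrambled siRNA in 2 arrays, 947 genes (7.47% of those tested) were called higher with siLincp21. Of these 330 rose with siHnrnpk, which is 34.8% of that group and 18.5% of the genes that rose with siHnrnpk, and 101 fell (10.7%), with a median change of 0.20. Of all tested genes 14.1% rose and 12.8% fell with siHnrnpk. Of the 556 genes (4.39%) called lower there, 173 fell with siHnrnpk, which is 31.1% of that group and 10.6% of the genes that fell, and 50 rose, with a median of -0.22. The medians in arrays 1 to 3 of siHnrnpk were 0.18, 0.24 and 0.21 for the first group and -0.21, -0.22 and -0.19 for the second. In each array both groups were thus shifted in the direction seen in the other experiment, against a median of -0.001 over all tested genes.

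The siP53 genes of the lincP21KD experiment did not separate in this way. Of 888 genes (7.01%) called higher there 251 rose (28.3%) and 117 fell (13.2%) with siHnrnpk, and of 727 (5.74%) called lower 201 rose (27.6%) and 134 fell (18.4%). Of all tested genes 14.1% rose and 12.8% fell, so the share of 13.2% was near that of all genes. The medians of the 888 and 727 genes were 0.13 and 0.11, so both were above 0, and without siControl array 2 they were 0.17 and 0.04. In the time course, cells given AdenoCre for 24 h were compared with cells given AdenoGFP, in which p53 stays silent, with 1 array of each at 0, 1, 3, 6 and 9 h of 500 nM doxorubicin. Its 0 h arrays had no drug. Over these times 228 genes (1.80%) were at least 2-fold higher with p53 restored. Of these 96 rose with siHnrnpk (42.1%) and 20 fell (8.77%), with a median of 0.33 and array medians of 0.32, 0.36 and 0.33. Of 44 genes (0.347%) at least 2-fold lower with p53 restored, 10 rose (22.7%) and 11 fell (25%), with a median of 0.11 and array medians from 0.01 to 0.22. Without siControl array 2 that median was 0.26.

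**Figure D5:**
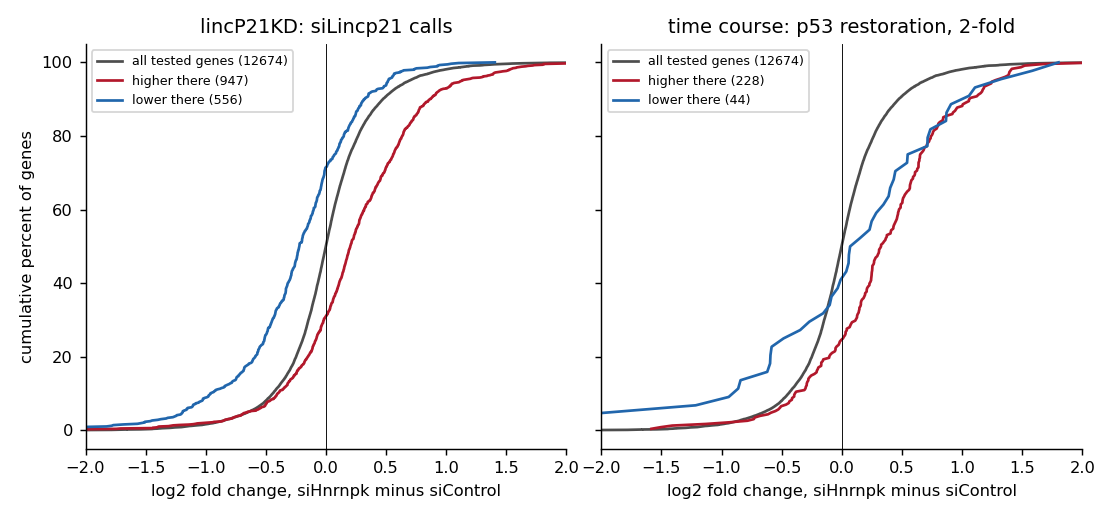
Cumulative percent of genes (y axis) against the change with siHnrnpk (x axis, log2, siHnrnpk minus siControl). The left panel shows the 947 genes higher and 556 genes lower with siLincp21 in the lincP21KD experiment, the right panel the 228 genes at least 2-fold higher and 44 lower with p53 restored, each beside all 12674 tested genes. On the left the 2 groups lie on opposite sides of all genes, and on the right the genes higher with p53 lie to their right.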

How the data were processed

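RNA of mouse fibroblasts was measured on Affymetrix arrays of 45101 probe sets. The deposited values are log2 signal that the authors made with RMA, as the submitters' processing notes name it without a version. Probe sets were named through the platform annotation: 34958 have 1 symbol, 932 several and 9211 none. Trp53, the lincRNA-p21 gene, Bax, Gdf15 and Ccnb1 were not analysed here. For each gene the brightest probe set on average across the 30 arrays was used, the lowest 40% of probe sets (log2 below 4.5442) were left out, and 12674 genes remained. limma 3.58.1 in R 4.3.3 was fitted to the 12 arrays of the experiment (4 groups of 3), so that all groups share 1 estimate of spread, with Benjamini-Hochberg adjustment. diffSplice was run over probe sets. The scripts were tested on simulated data. The named genes are Hnrnpk, Cdkn1a, the 12 largest called changes in each direction without overlap and the 6 largest against each other siRNA. They also include the 6 genes with the smallest probe set p and the 4 of each list with the smallest p. Predicted genes were passed over in all of these but the lists, and other named genes are marked. The members and lists were chosen with earlier results of these data known. Arrays of the same number deviated together (correlations 0.216, 0.166 and 0.209 for numbers 1 to 3), which comes from the data and not from the labels, and the fit with the number as a block is an alternative. Other alternatives were the scaling, the filter, the probe set rule, array weights, a minimum fold, variance settings and leaving out each array. The number of arrays limits the precision.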

Additional observations from a re-analysis of the deposited data

How the results depend on the processing

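With the replicate number as a block, read as pairs of arrays, 1970 genes were higher and 1854 lower, 3374 of the calls were shared with the fit without it, none of the 195 named gene calls changed, and 2 list counts moved by over 1.5 times: interferon genes that rose, as given above, and endothelial markers that rose, from 0 to 1. With array weights, whose estimation stopped before it converged, 2998 genes were higher and 2755 lower. With a minimum fold of 1.2, 666 were higher and 590 lower. Without siHnrnpk array 3 and siControl array 2 together, an alternative chosen after seeing the data, 1179 were higher. Leaving out 1 array gave 1255 to 2327 higher and 1136 to 2172 lower against siControl, with the upper ends without siP53 array 2. The probe set test gave 348 genes with the lowest 60% left out, 230 with means of at least 7 (chosen after seeing the data), and 314 to 474 without 1 array. With members at an adjusted p below 0.01, the medians were 0.28 (higher with p53), 0.20 and 0.16 (higher and lower with siP53), 0.32 and -0.19 (higher and lower with siLincp21). Without 1 array these medians ranged from 0.29 to 0.37, 0.11 to 0.17, 0.037 to 0.141, 0.19 to 0.22 and -0.25 to -0.20, and that of genes lower with p53 from 0.061 to 0.261. Cbx5 turned to 0.14 on the probe set brightest over the 12 arrays, and Pcbp2 to -0.51 averaged over probe sets, both by construction of another probe set. Of the 195 named genes, the minimum fold of 1.2 ended 39 calls, among them U2af1, Bcl2l11, Pmaip1, Mcl1, Cdk2, Xrcc1, Brip1, Csf1r, Nes and Stmn2, averaging probe sets ended 10, and leaving out 1 siHnrnpk or siControl array 4 to 11. The other causes were not tested.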
